A study of Homo sapiens with 9 samples.

Results

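The IGF and insulin axis was followed through 10 genes in RNA-seq of OVCAR3 cells, a line derived from a high-grade serous ovarian carcinoma. The genes were the growth factor IGF1, the receptors IGF1R and INSR, the adaptors IRS1 and IRS2, and the binding proteins IGFBP2, IGFBP3, IGFBP4, IGFBP5 and IGFBP6. They were taken as a list of named genes, matched by Ensembl identifier, from 60660 genes in the count matrix, and all 10 were found and had enough counts to be tested. The study asked which genes change when CTCFL, a germline paralog of the chromatin factor CTCF that is also called BORIS, is raised or lowered in these cells.

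IGF1 and IGF2 are secreted ligands that bind the IGF1R tyrosine kinase, while insulin acts mainly through INSR, and both receptors can pair into hybrids. The active receptors phosphorylate the adaptors IRS1 and IRS2, which recruit PI3K and so turn on Akt, and Akt keeps FOXO transcription factors out of the nucleus. Secreted IGFBPs bind the IGFs with high affinity and carry or sequester them, and proteases such as PAPPA release the ligand by cutting the binding protein. Insulin and IGF signalling in ovarian carcinoma cells is a known input to growth and survival.

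Each group held 3 libraries. For Control and CTCFL-OE, the methods describe each biological replicate as a pool of 3 technical replicates, and for CTCFL-KD no such step is given in the sources used here. Control cells received a LacZ plasmid according to the study's methods. CTCFL-OE cells were transiently transfected overnight with 2 µg of a plasmid that carried the CTCFL open reading frame and were harvested at 48 h. CTCFL-KD cells had CTCFL knocked down by siRNA in an earlier experiment, with no siRNA control among these libraries, so the loss of CTCFL, the way of transfection and the experiment cannot be told apart in their comparison with Control. The growth medium of all cells held bovine insulin at 0.01 mg/ml, so insulin was supplied to every group, besides 20% serum. All libraries come from 1 cell line, and a transiently transfected culture also holds cells that took up no plasmid. In such bulk libraries, fewer cells of a type and less RNA per cell cannot be told apart.

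The libraries held between 14332622 and 24490080 counts, and the limit of 3 counts below which a gene counted 0 times may still lie stood for 0.117 to 0.271 CPM, the counts of a gene scaled to a library of 1000000 counts after normalization between libraries. CTCFL itself had 6 to 10 counts in Control, 34 to 72 in CTCFL-OE cells and 0 or 1 in CTCFL-KD cells, in the order of the labels. The 10 ovarian carcinoma markers were all detected, with summed levels of 5322 to 5408 CPM in Control, 4798 to 5073 CPM in CTCFL-OE cells and 9472 to 15991 CPM in CTCFL-KD cells. Of these markers, 7 were DEGs higher in CTCFL-KD and 1, KRT7, was a DEG lower, against 15.3% and 7.94% of all tested genes. WT1 also lay below Control, with 37.7 to 54.0 CPM in CTCFL-KD against 71.3 to 74.7 CPM. KRT8 alone reached 3218 to 5710 CPM in CTCFL-KD. The CTCFL-KD libraries stood apart from the rest in other genes too, since COL1A2, a collagen of fibroblasts, had 0 counts in every Control library, 1, 2 and 0 counts in CTCFL-OE and 156, 239 and 247 counts in CTCFL-KD. COL1A1, the other chain of the same collagen, instead had 26.4 to 32.0 CPM in Control and 21.3 to 26.1 CPM in CTCFL-KD. Of the 10 fibroblast markers, 4 had enough counts to be tested, and 2 were DEGs in CTCFL-KD, COL1A2 and POSTN, both higher, where 23.2% of all tested genes were DEGs (15.3% higher). The 10 fibroblast markers together reached 28.0 to 33.8 CPM in Control, 25.0 to 44.2 CPM in CTCFL-OE cells and 37.8 to 43.0 CPM in CTCFL-KD cells, and 8 leukocyte and endothelial markers stayed between 6.03 and 11.0 CPM in all libraries. Mitochondrial transcripts took 6.16% to 6.52% of the counts in Control, 7.40% to 14.9% in CTCFL-OE cells and 7.80% to 11.8% in CTCFL-KD cells. CTCFL-KD replicate 1 favoured short transcripts, with a deviation from the mean of the Control libraries of 0.545 on the log2 scale for genes of 2 kb of exon and of -0.334 for genes of 10 kb. What these differences add to the results below was not tested, except where a value without the library or with the length trend removed is given.

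The start sites of the 10 genes differ in kind, and 6 promoters are shown, those of the ligand, both receptors and 1 adaptor, and those of 2 binding proteins as examples that hold a stretch of the CTCF and CTCFL recognition sequence. All are RefSeq windows of 250 bases that end just before the start site, in build GRCh38.p14, written on the gene's strand. The 10 genes had 13 such windows, since IGF1 had 2 and IGFBP2 had 3. In the first 4 lines, capitals mark CpG dinucleotides, which cluster in the promoters of widely expressed genes.
IGF1 (chr12:102481748-102481997, minus strand), IGF1R (chr15:98648289-98648538, plus strand), INSR (chr19:7294415-7294664, minus strand) and IRS2 (chr13:109786584-109786833, minus strand):
IGF1: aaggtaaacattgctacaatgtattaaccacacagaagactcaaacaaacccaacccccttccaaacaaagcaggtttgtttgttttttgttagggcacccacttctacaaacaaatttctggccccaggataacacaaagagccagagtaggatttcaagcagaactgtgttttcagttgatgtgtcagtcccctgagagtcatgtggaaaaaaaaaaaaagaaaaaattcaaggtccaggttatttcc
IGF1R: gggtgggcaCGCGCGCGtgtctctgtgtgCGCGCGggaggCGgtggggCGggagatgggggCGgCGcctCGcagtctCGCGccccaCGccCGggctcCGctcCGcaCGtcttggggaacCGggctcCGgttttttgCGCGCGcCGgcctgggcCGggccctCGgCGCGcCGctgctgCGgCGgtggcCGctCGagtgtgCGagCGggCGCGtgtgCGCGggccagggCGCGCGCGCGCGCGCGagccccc
INSR: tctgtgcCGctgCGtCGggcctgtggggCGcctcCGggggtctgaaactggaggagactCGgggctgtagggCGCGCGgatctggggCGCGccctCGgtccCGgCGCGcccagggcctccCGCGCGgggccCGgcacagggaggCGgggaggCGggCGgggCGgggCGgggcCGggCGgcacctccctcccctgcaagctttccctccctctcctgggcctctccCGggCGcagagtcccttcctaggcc
IRS2: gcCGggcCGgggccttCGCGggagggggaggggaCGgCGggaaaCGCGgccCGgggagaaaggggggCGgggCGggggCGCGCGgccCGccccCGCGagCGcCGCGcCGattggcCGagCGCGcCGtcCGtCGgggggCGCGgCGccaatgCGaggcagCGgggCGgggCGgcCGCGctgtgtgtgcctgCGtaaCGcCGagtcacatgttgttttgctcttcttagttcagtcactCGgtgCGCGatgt
The IGF1 window held 0 CpGs, while IGF1R held 48, INSR 28 and IRS2 42, against a median of 11.0 over 35116 windows of this length. The other IGF1 window held 1 CpG, IRS1 held 39, IGFBP3 held 32 and IGFBP4 held 24. Below the median lay IGFBP5 with 8 and IGFBP6 with 9, and the IGFBP2 windows held 7, 22 and 4.

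The next 2 windows, IGFBP2 (chr2:216633170-216633419, plus strand) and IGFBP4 (chr17:40443200-40443449, plus strand), are shown for the 7 letters AGGGGGC, part of the core that CTCF and CTCFL recognise, which stand in capitals in either orientation.
IGFBP2: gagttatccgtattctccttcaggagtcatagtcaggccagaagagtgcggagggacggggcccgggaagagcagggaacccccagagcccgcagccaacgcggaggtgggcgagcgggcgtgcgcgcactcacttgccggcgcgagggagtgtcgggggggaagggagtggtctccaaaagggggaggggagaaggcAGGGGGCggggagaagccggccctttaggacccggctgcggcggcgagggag
IGFBP4: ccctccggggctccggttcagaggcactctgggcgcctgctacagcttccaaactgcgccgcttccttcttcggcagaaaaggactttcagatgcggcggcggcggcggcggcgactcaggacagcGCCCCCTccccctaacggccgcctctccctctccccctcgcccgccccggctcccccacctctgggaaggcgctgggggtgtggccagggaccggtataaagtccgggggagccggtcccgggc
On either strand, AGGGGGC was found in 4 of the 13 windows, in IGFBP2, IGFBP4 and IGFBP5, against 13.3% of all windows. The GC box GGGCGG lay in 9 of the 13 windows and in 42.6% of all, TATAAA in 1 (IGFBP4) and in 10.7% of all, and the FOXO site TGTTTAC in 2 (IGF1 and IGFBP6) and in 2.98% of all. Such a match describes the letters of the window and is not a binding site.

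Levels between genes were compared as FPKM, which are CPM divided by the kilobases of merged exons, since longer genes collect more reads. In Control, IGFBP3 had the highest level of the 10 genes with 249.6 FPKM ± 4.20 (SD, n = 3) and ranked 141 among 17736 tested genes with a length. IGFBP2 followed with 51.1 ± 3.56 FPKM, and then IGFBP4 with 36.2 ± 2.19 FPKM and IRS2 with 34.0 ± 1.29 FPKM, which overlapped between libraries. IGFBP5 had 7.50 ± 0.321 FPKM and IRS1 2.51 ± 0.174 FPKM, both apart from their neighbours in the order. The receptors were both low, with IGF1R at 1.39 ± 0.0684 FPKM and INSR at 1.36 ± 0.0490 FPKM, and their libraries overlapped. IGFBP6 at 0.588 ± 0.0935 FPKM and IGF1 at 0.260 ± 0.0420 FPKM closed the order, IGF1 ranking 15661. In Control, then, transcripts of the binding proteins IGFBP3, IGFBP2 and IGFBP4 exceeded those of either receptor, and the ligand was the least abundant of the 10.

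In CTCFL-OE the order was the same down to IGFBP5, and IGFBP2 and IGFBP4 overlapped. INSR at 2.90 ± 0.793 FPKM, IGF1R at 2.26 ± 0.653 FPKM and IRS1 at 1.96 ± 0.152 FPKM overlapped one after the other there. In CTCFL-KD the first place went to IGFBP2 with 272 ± 135 FPKM, which overlapped with IGFBP3 at 202 ± 32.7 FPKM. IRS2, at 8.56 ± 2.85 FPKM, then stood below IGFBP5 at 13.0 ± 5.48 FPKM, with overlapping libraries. At the low end, IRS1, IGF1R and IGF1, at 0.940 ± 0.456, 0.703 ± 0.217 and 0.650 ± 0.319 FPKM, overlapped in CTCFL-KD, whereas in Control they lay apart.

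**Figure D1:**
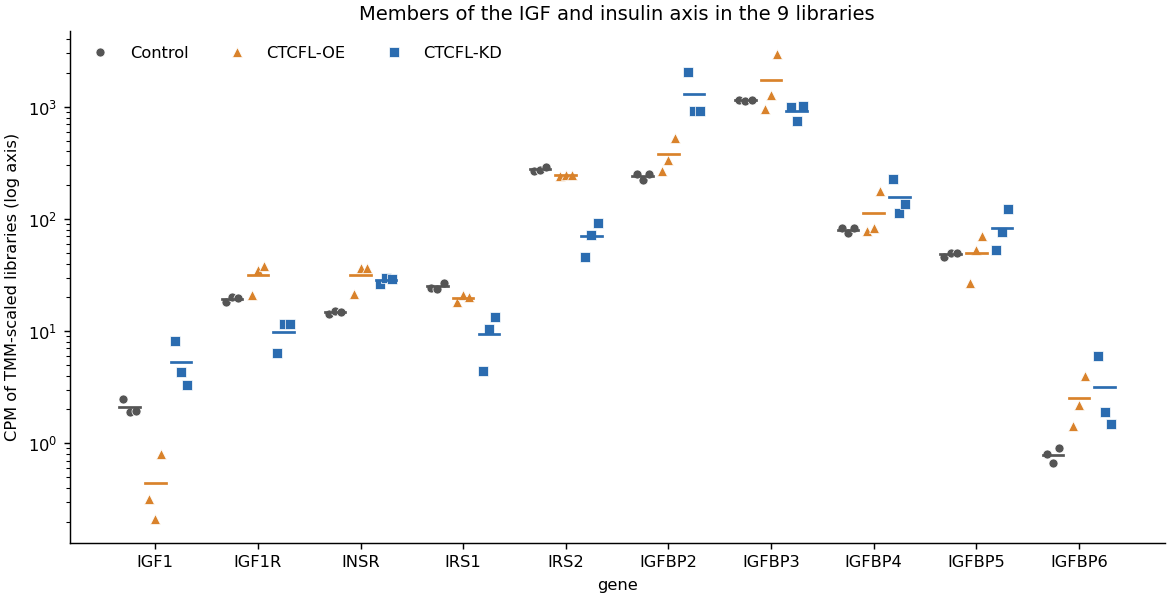
Level of each of the 10 genes in the 9 libraries, as CPM of TMM-scaled libraries on a log axis. Points are libraries (circles Control, triangles CTCFL-OE, squares CTCFL-KD) and short lines are group means (n = 3). IGF1 lies lower in CTCFL-OE and higher in CTCFL-KD than in Control, IRS1 and IRS2 lie lowest in CTCFL-KD, and IGFBP2 lies highest there.

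Genes were called differentially expressed (DEGs) when the log2 fold change went past 1 up or down and the p-value of edgeR's quasi-likelihood test, adjusted by Benjamini-Hochberg over 17794 genes, was under 0.1 for CTCFL-OE vs Control or under 0.05 for CTCFL-KD vs Control. These are the thresholds of the study's methods. In CTCFL-OE, 2 of the 10 genes were DEGs, INSR higher and IGF1 lower, where 2.07% of all tested genes were DEGs (1.37% higher and 0.702% lower). In 7 of the 10 genes the 3 CTCFL-OE libraries lay wholly above (4) or below (3) the Control libraries, against 37.1% of all genes. In CTCFL-KD, 5 of the 10 were DEGs, with IGF1, IGFBP2 and IGFBP6 higher and IRS1 and IRS2 lower, where 23.2% of all tested genes were DEGs (15.3% higher and 7.94% lower). All 10 had CTCFL-KD libraries wholly above (6) or below (4) the Control libraries, against 56.3% of all genes, and 8 passed the adjusted p at any fold, against 38.2%. The 10 genes had a median log2 fold change of 0.55 with CTCFL-OE and 0.87 with CTCFL-KD, beside medians of -0.01 and 0.08 over all tested genes. Since both comparisons use the same Control libraries, the responses were set against each other by testing CTCFL-KD directly against CTCFL-OE, with the thresholds of the CTCFL-KD comparison. In that contrast 5 of the 10 were DEGs, against 17.0% of all tested genes, with IGF1 and IGFBP2 higher in CTCFL-KD (10.6% of all genes) and IGF1R, IRS1 and IRS2 lower (6.42%). The same 5 had no overlap between the libraries of the 2 groups, against 39.8% of all genes.

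**Figure D2:**
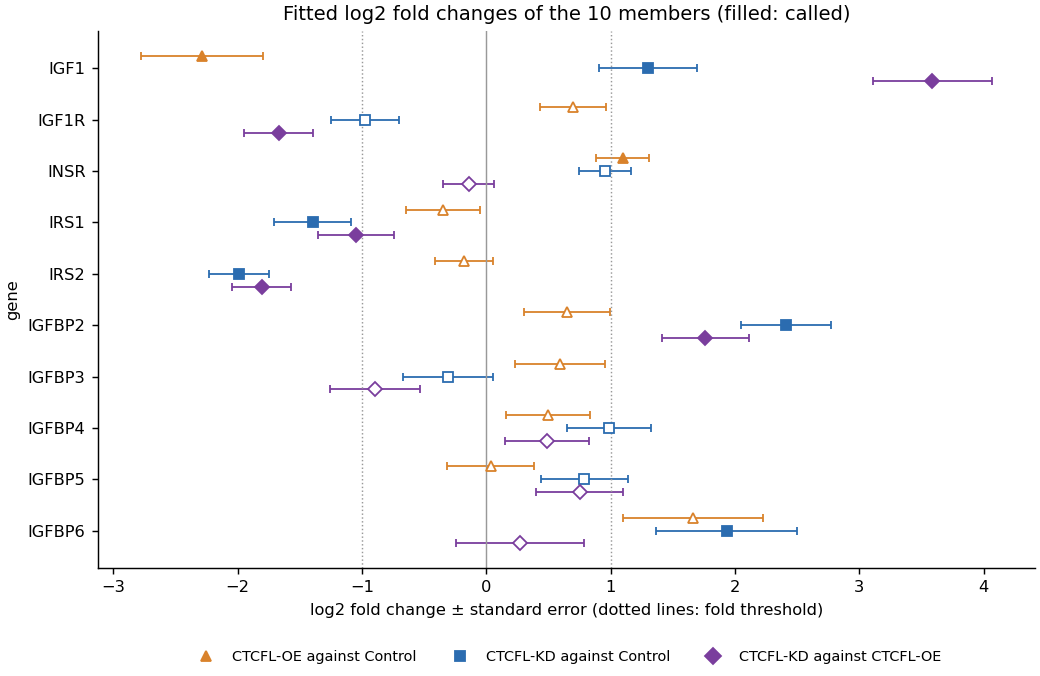
Fitted log2 fold change and standard error of the 10 genes in CTCFL-OE vs Control, CTCFL-KD vs Control and CTCFL-KD vs CTCFL-OE (n = 3 libraries a group). Filled symbols are DEGs and dotted lines mark the fold threshold of 1. IGF1 lies at -2.29 in CTCFL-OE and at 1.30 in CTCFL-KD, while INSR lies near 1 in both.

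IGF1, the ligand, moved in opposite directions in both conditions. It lies at chr12:102395874-102481744 on the minus strand (GRCh38, GENCODE 44). It had counts of 50, 49 and 38 in Control, 7, 4 and 13 in CTCFL-OE cells and 91, 73 and 60 in CTCFL-KD cells. After scaling, Control had 2.11 ± 0.341 CPM, against 0.442 ± 0.314 CPM in CTCFL-OE cells and 5.28 ± 2.59 CPM in CTCFL-KD cells (mean ± SD, n = 3). Every CTCFL-OE library lay below and every CTCFL-KD library above all Control libraries. IGF1 was 4.88-fold lower in CTCFL-OE (log2 fold change -2.29, SE 0.49, edgeR adjusted p = 0.0550) and 2.46-fold higher in CTCFL-KD (1.30, SE 0.40, adjusted p = 0.0241). CTCFL-KD exceeded CTCFL-OE by 12.0-fold (log2 3.59, SE 0.48, adjusted p = 0.000393). The direct contrast kept its call without any of the 6 libraries it compares, with log2 fold changes of 3.15 to 4.24. The CTCFL-OE call was lost without any 1 of the 3 Control libraries or without CTCFL-OE replicate 2 (log2 fold changes of -2.36 to -1.96, adjusted p between 0.188 and 0.238). The CTCFL-KD call was lost without Control replicate 2 or 3 (log2 fold changes of 1.22 and 1.23, adjusted p = 0.0873 and 0.0832) and without CTCFL-KD replicate 1 (log2 fold change 0.86, adjusted p = 0.0424). IGF1 shares its locus with HELLPAR, a long noncoding RNA on the opposite strand, with 25, 52 and 31 counts in Control, 60, 67 and 43 in CTCFL-OE cells and 5, 28 and 21 in CTCFL-KD cells. Since the strand setting of the counting is not given in the sources used here, reads of the overlapping stretch cannot be assigned with certainty.

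The other ligands were close to absent. IGF2 had 0, 1 and 1 counts in Control, 1, 1 and 0 in CTCFL-OE cells and 0, 13 and 8 in CTCFL-KD cells, too few to be tested. The 13 and 8 counts stand above the limit of 3 counts, but CTCFL-KD replicate 1 was at 0. INS, which encodes insulin, had 0 counts in all 9 libraries.

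The receptors IGF1R and INSR, which overlapped per length in Control, separated in CTCFL-KD. IGF1R, at chr15:98648539-98964530, had 18.3, 20.1 and 19.9 CPM in Control, 21.1, 35.1 and 38.2 CPM in CTCFL-OE cells and 6.31, 11.6 and 11.5 CPM in CTCFL-KD cells. INSR, at chr19:7112255-7294414, had 14.1, 15.0 and 14.9 CPM in Control, 21.5, 36.2 and 36.6 CPM in CTCFL-OE cells and 26.3, 30.0 and 29.0 CPM in CTCFL-KD cells. Both receptors therefore lay above all Control libraries in CTCFL-OE, with replicate 1 the closest to Control, whereas in CTCFL-KD INSR lay above and IGF1R below.

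INSR was 2.14-fold higher in CTCFL-OE (log2 1.10, SE 0.21, adjusted p = 0.0389). This call was lost without any 1 Control library or without CTCFL-OE replicate 2 or 3 (log2 0.97 to 1.11, adjusted p between 0.147 and 0.217). In CTCFL-KD INSR was 1.94-fold higher (log2 0.96, SE 0.21, adjusted p = 0.00507), just short of the fold threshold, and it became a DEG without CTCFL-KD replicate 1 (1.01) and with the length trend of each library removed (1.04). CTCFL-KD and CTCFL-OE differed by -0.14 ± 0.21 (log2 fold change ± SE, adjusted p = 0.641).

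IGF1R in CTCFL-OE had a log2 fold change of 0.69 (SE 0.27, adjusted p = 0.210) and was not a DEG. In CTCFL-KD it was 1.97-fold lower (log2 -0.98, SE 0.27, adjusted p = 0.0163), just short of the fold threshold. With the replicate number as a block, since same-numbered CTCFL-KD and Control libraries deviated together, the value was -1.04 (adjusted p = 0.00493) and IGF1R was a DEG, and it was also one in both DESeq2 fits (-1.01 and -1.03), without the low-count filter (-1.04) and without Control replicate 1 or CTCFL-KD replicate 2 or 3 (-1.03 to -1.11). With the block and the length trend removed together it was -0.96, again short of the threshold. IGF1R fell 3.18-fold from CTCFL-OE to CTCFL-KD (log2 -1.67, SE 0.28, adjusted p = 0.00141), a call kept in all 20 alternative fits.

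The ratio of IGF1R to INSR counts within a library needs no scaling between libraries. It was 1.30, 1.33 and 1.33 in Control, 0.981, 0.970 and 1.04 in CTCFL-OE cells and 0.240, 0.386 and 0.396 in CTCFL-KD cells. The groups did not overlap, and the ratio was 3.98-fold lower in CTCFL-KD than in Control. An exact two-sided permutation test gave p = 0.10, the smallest that 3 against 3 libraries allow. IGF2R, which clears IGF2 from the cell surface, was not a DEG in either condition (log2 0.73, adjusted p = 0.293 in CTCFL-OE, and 0.63, adjusted p = 0.169 in CTCFL-KD). INSRR, the insulin receptor-related receptor, had at most 1 count in any library.

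**Figure D3:**
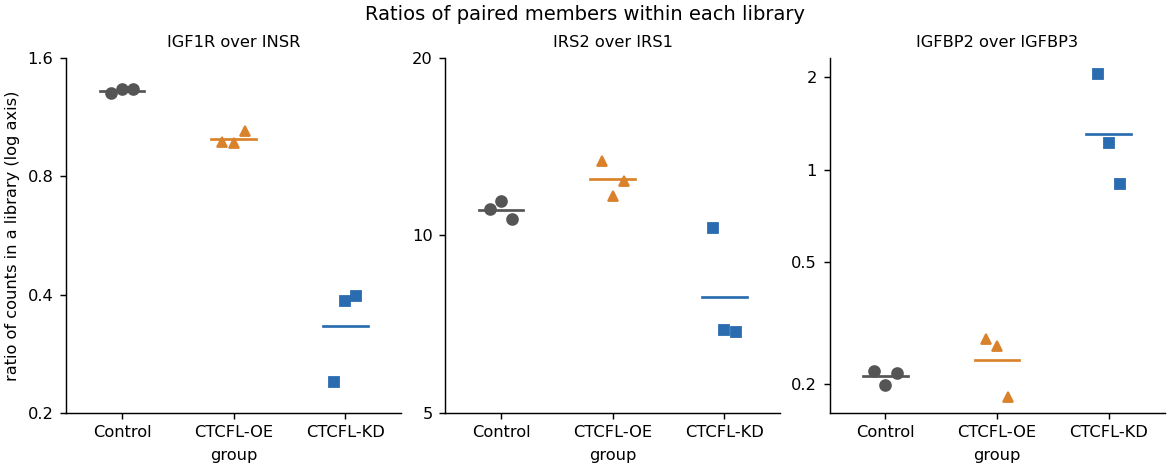
Ratios of the counts of paired genes within each library, on log axes, with points for libraries and lines for geometric means (n = 3). IGF1R over INSR goes from 1.30 to 1.33 in Control down to between 0.240 and 0.396 in CTCFL-KD, and IGFBP2 over IGFBP3 from between 0.199 and 0.220 up to between 0.899 and 2.05.

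The adaptors IRS1 and IRS2, which couple the receptors to PI3K, both fell in CTCFL-KD. IRS2, at chr13:109752695-109786583, had 269.6, 272 and 289 CPM in Control, 241, 245 and 248 CPM in CTCFL-OE cells and 45.5, 72.3 and 91.7 CPM in CTCFL-KD cells. The CTCFL-OE libraries lay slightly below and the CTCFL-KD libraries far below all Control libraries. IRS2 was 3.96-fold lower in CTCFL-KD (log2 -1.99, SE 0.24, adjusted p = 0.000151) and had a log2 fold change of -0.18 (SE 0.23, adjusted p = 0.712) in CTCFL-OE. IRS1, at chr2:226731312-226799820, had 24.3, 23.9 and 27.1 CPM in Control, 18.0, 21.0 and 20.0 CPM in CTCFL-OE cells and 4.42, 10.5 and 13.4 CPM in CTCFL-KD cells, with the groups ordered as for IRS2. It was 2.63-fold lower in CTCFL-KD (log2 -1.40, SE 0.31, adjusted p = 0.00491) and had a log2 fold change of -0.35 (SE 0.30, adjusted p = 0.559) in CTCFL-OE. Both decreases in CTCFL-KD remained DEGs in all 20 alternative fits, with log2 fold changes of -2.24 to -1.75 for IRS2 and -1.73 to -1.07 for IRS1.

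Directly against CTCFL-OE, IRS2 was 3.50-fold lower in CTCFL-KD (log2 -1.81, SE 0.24, adjusted p = 0.000366) and IRS1 2.06-fold lower (log2 -1.05, SE 0.31, adjusted p = 0.0276). The IRS1 call in this contrast was lost without CTCFL-KD replicate 1 or without any 1 CTCFL-OE library (log2 fold changes of -1.11 to -0.72) and in edgeR with only those 2 groups in the fit (adjusted p = 0.0804), but not in DESeq2 on the same 2 groups (adjusted p = 0.0315). IRS1 was lowest in CTCFL-KD replicate 1, the library that favoured short transcripts, and the IRS1 exons span 10019 bases. With the length trend removed, IRS1 still fell by 1.37 on the log2 scale in CTCFL-KD. IRS2 outnumbered IRS1 in every library, by 10.7- to 11.4-fold in counts in Control, by 11.6- to 13.4-fold in CTCFL-OE cells and by 10.3-, 6.91- and 6.86-fold in CTCFL-KD cells. These ranges did not overlap (exact two-sided permutation p = 0.10 for each pair of groups, the smallest possible).

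Of the 5 binding proteins, IGFBP2 had the highest fitted fold change in CTCFL-KD. IGFBP2, which binds IGF2 with some preference, lies at chr2:216632828-216664436, next to IGFBP5 at chr2:216672105-216695549. It had 252, 223 and 252 CPM in Control, 270.1, 338 and 532 CPM in CTCFL-OE cells and 2029.9, 916 and 922 CPM in CTCFL-KD cells. Both conditions lay above all Control libraries, and CTCFL-KD replicate 1 was above the other 2 by more than their distance from Control. IGFBP2 was 5.32-fold higher in CTCFL-KD (log2 2.41, SE 0.36, adjusted p = 0.000550), and 1.93 on the log2 scale without replicate 1 (a DEG in all 20 alternative fits). In CTCFL-OE its log2 fold change was 0.65 (SE 0.34, adjusted p = 0.349), and 0.32 without replicate 3. It was 3.39-fold higher in CTCFL-KD than in CTCFL-OE (log2 1.76, SE 0.35, adjusted p = 0.00430).

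IGFBP3, the main IGF carrier of the circulation, is at chr7:45912245-45921874 and had 1148, 1119 and 1155 CPM in Control, 962, 1271 and 2924 CPM in CTCFL-OE cells and 991, 751 and 1025 CPM in CTCFL-KD cells. CTCFL-OE replicate 3 was far above the other libraries, and CTCFL-OE overlapped with Control. No comparison of IGFBP3 passed the test, with log2 fold changes of 0.59 (SE 0.36, adjusted p = 0.414) in CTCFL-OE, where it was -0.04 without replicate 3, and -0.31 (SE 0.36, adjusted p = 0.525) in CTCFL-KD. CTCFL-KD against CTCFL-OE gave -0.90 (SE 0.36, adjusted p = 0.0877). This value was -1.19 (adjusted p = 0.0314), a DEG, without CTCFL-OE replicate 1 and -0.28 (adjusted p = 0.395) without CTCFL-OE replicate 3.

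IGFBP4, a binding protein that PAPPA cleaves, is at chr17:40443450-40457725. It had 82.8, 74.2 and 82.2 CPM in Control, 78.2, 82.5 and 178 CPM in CTCFL-OE cells and 227, 112 and 135 CPM in CTCFL-KD cells. All CTCFL-KD libraries lay above Control, while in CTCFL-OE only replicate 3 stood clear of it. The log2 fold change in CTCFL-KD was 0.99 (SE 0.34, adjusted p = 0.0413), which passed the adjusted p but not the fold threshold, and it was 0.76 with the length trend removed, IGFBP4 exons spanning 2205 bases. IGFBP4 was a DEG with upper-quartile scaling (1.003) and without CTCFL-KD replicate 2 or 3 (1.19 and 1.08), and without CTCFL-KD replicate 1 it was 0.64 (adjusted p = 0.1005). In CTCFL-OE it was 0.50 (SE 0.34, adjusted p = 0.463), and 0.0044 without replicate 3.

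IGFBP5, which binds extracellular matrix as well as IGFs, had 46.1, 49.5 and 49.9 CPM in Control, 27.0, 52.4 and 70.2 CPM in CTCFL-OE cells and 52.8, 76.3 and 122 CPM in CTCFL-KD cells. CTCFL-OE spread to both sides of Control, and CTCFL-KD lay above it with replicate 1 close to it. The log2 fold change was 0.04 (SE 0.35, adjusted p = 0.965) in CTCFL-OE and 0.79 (SE 0.35, adjusted p = 0.0976) in CTCFL-KD, and neither passed. Without CTCFL-KD replicate 1 the latter was 1.04 (adjusted p = 0.0207), a DEG, and without CTCFL-KD replicate 3 it was 0.41 (adjusted p = 0.363).

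IGFBP6, an IGF2-preferring binding protein at chr12:53097436-53102345, had few counts, with 16, 17 and 18 in Control, 31, 42 and 65 in CTCFL-OE cells and 67, 32 and 27 in CTCFL-KD cells. Both conditions lay above Control in every library. It was 3.82-fold higher in CTCFL-KD (log2 1.93, SE 0.57, adjusted p = 0.0205), a call lost without CTCFL-KD replicate 1 (1.10, adjusted p = 0.0610) or without Control replicate 1 or 2 (log2 1.94 and 1.80, adjusted p = 0.0571 and 0.0728). In CTCFL-OE the log2 fold change was 1.66 (SE 0.56, adjusted p = 0.167). IGFBP6 was a DEG in CTCFL-OE in both DESeq2 fits (adjusted p = 0.0526 and 0.00358), without the low-count filter, with the length trend removed, with edgeR on only these 2 groups, without CTCFL-OE replicate 1 and without CTCFL-KD replicate 1.

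The library with the most mitochondrial counts of its group was CTCFL-OE replicate 3 (14.9%), CTCFL-KD replicate 1 (11.8%) and, among Control, replicate 1 (6.52%). CTCFL-OE replicate 3 was the highest of its group for 9 of the 10 genes, with IRS1 the exception, against 31.8% of all tested genes. For CTCFL-KD replicate 1 it was 4 of the 10 (IGF1, IGFBP2, IGFBP4 and IGFBP6), near the 44.6% of all tested genes, and for Control replicate 1 it was 3 of the 10, near the 30.6%. Whether the mitochondrial share and the levels in CTCFL-OE are linked was not tested.

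The makeup of the binding proteins in CTCFL-KD differed from that of the other groups. Of the summed per-length level of IGFBP1 to IGFBP7, IGFBP3 made up 71.5% to 73.0% in Control, 67.9% to 75.4% in CTCFL-OE cells and 28.5%, 38.9% and 44.8% in CTCFL-KD cells. IGFBP2 made up 14.0% to 15.2% in Control, 13.2% to 18.4% in CTCFL-OE cells and 56.2%, 45.7% and 38.8% in CTCFL-KD cells. The sum itself was 335 to 353 FPKM in Control, 310.1, 398 and 848 FPKM in CTCFL-OE cells and 762, 422 and 501 FPKM in CTCFL-KD cells. The highest CTCFL-OE sum was in replicate 3, in which IGFBP3 alone had 639.9 FPKM, and the highest CTCFL-KD sum was in replicate 1, in which IGFBP2 had 428 FPKM. As a ratio of counts within a library, IGFBP2 over IGFBP3 was 0.220, 0.199 and 0.218 in Control, 0.281, 0.266 and 0.182 in CTCFL-OE cells and 2.05, 1.22 and 0.899 in CTCFL-KD cells. This ratio was 6.18-fold higher in CTCFL-KD than in Control, with no overlap (exact two-sided permutation p = 0.10, the smallest possible), while CTCFL-OE overlapped with Control (p = 0.40).

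**Figure D4:**
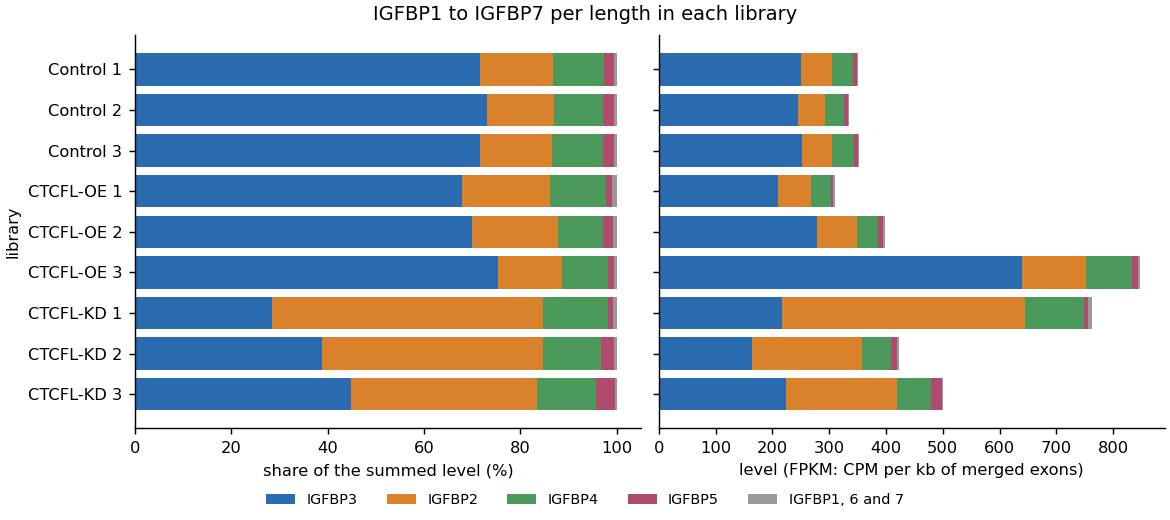
Share of each binding protein in the summed per-length level of IGFBP1 to IGFBP7 (left, percent) and the level itself (right, FPKM), 1 bar a library. IGFBP3 holds 67.9% or more in the Control and CTCFL-OE libraries and at most 44.8% in the CTCFL-KD libraries, where IGFBP2 holds at least 38.8%.

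Among the other genes of the axis, 49 of 57 listed were tested, and 2 of them were DEGs in CTCFL-OE (1 higher and 1 lower) and 9 in CTCFL-KD (4 higher and 5 lower), beside the 2.07% and 23.2% of all genes. Of the remaining binding proteins, IGFBP1 had at most 6 counts and IGFBP7 was not a DEG (log2 0.10 in CTCFL-OE, adjusted p = 0.890, and -0.41 in CTCFL-KD, adjusted p = 0.317). IGFBPL1, an IGFBP-like protein, had 7, 4 and 3 counts in Control, 5, 2 and 4 in CTCFL-OE cells and 9, 15 and 15 in CTCFL-KD cells, and it rose 3.83-fold in CTCFL-KD (log2 1.94, SE 0.43, adjusted p = 0.00488). IGFALS, the subunit that completes the circulating complex of IGF and IGFBP3, had 10, 10 and 7 counts in Control and 16, 15 and 19 in CTCFL-KD, a 2.64-fold rise (log2 1.40, SE 0.33, adjusted p = 0.00739). Both therefore changed at levels of at most 19 counts a library.

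Of the listed binding protein proteases and their inhibitors, all 3 genes that could be tested were DEGs in CTCFL-KD, where 23.2% of all genes were DEGs. PAPPA, the protease, had 28, 36 and 22 counts in Control, 14, 20 and 15 in CTCFL-OE cells and 2, 5 and 10 in CTCFL-KD cells, and fell 3.57-fold in CTCFL-KD (log2 -1.84, SE 0.39, adjusted p = 0.00404). In CTCFL-OE its log2 fold change was -0.60 (adjusted p = 0.372). STC2, an inhibitor of PAPPA, had 19.6, 18.7 and 19.3 CPM in Control, 22.3, 56.2 and 58.5 CPM in CTCFL-OE cells and 123, 107 and 238 CPM in CTCFL-KD cells. It rose 8.12-fold in CTCFL-KD (log2 3.02, SE 0.40, adjusted p = 0.000261), while its CTCFL-OE value of 1.25 (SE 0.38, adjusted p = 0.136) missed the threshold. STC2 was a DEG in CTCFL-OE in 9 of the 20 alternative fits, over which the adjusted p ran from 5.17e-05 to 0.436.

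STC1, the related inhibitor, had 11.5, 11.2 and 12.4 CPM in Control, 29.8, 33.8 and 76.5 CPM in CTCFL-OE cells and 2.35, 3.63 and 6.96 CPM in CTCFL-KD cells. It rose 3.99-fold in CTCFL-OE (log2 2.00, SE 0.40, adjusted p = 0.0463), and fell in CTCFL-KD (log2 -1.41, SE 0.42, adjusted p = 0.0219). The rise lost its call without any 1 Control library or without CTCFL-OE replicate 2 or 3 (log2 1.44 to 2.18, adjusted p between 0.109 and 0.223), and the fall without Control replicate 3 or CTCFL-KD replicate 2 (log2 -1.38 and -1.27, adjusted p = 0.0563 and 0.0701). Directly compared, STC1 fell by 3.41 on the log2 scale from CTCFL-OE to CTCFL-KD (SE 0.44, adjusted p = 0.000305) and STC2 rose by 1.78 (SE 0.38, adjusted p = 0.00610). Within a library, STC2 counts were 1.56 to 1.71 times those of STC1 in Control, 0.746, 1.66 and 0.765 times in CTCFL-OE, which overlapped with Control, and 29.6 to 52.3 times in CTCFL-KD. The fourth gene of this list, PAPPA2, had at most 1 count.

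Of the 3 IGF2 mRNA-binding proteins, which bind IGF2 and other transcripts in growing cells, IGF2BP1 fell most. It had 1985, 2773 and 2258 counts in Control, 1895, 2345 and 1672 in CTCFL-OE cells and 30, 59 and 68 in CTCFL-KD cells, which set CTCFL-KD far below the rest. Its log2 fold change was -5.00 in CTCFL-KD (SE 0.22, adjusted p = 7.04e-07) and -0.04 in CTCFL-OE (adjusted p = 0.918). IGF2BP2 (-0.17, adjusted p = 0.428) and IGF2BP3 (-0.82, adjusted p = 0.141) were not DEGs in CTCFL-KD.

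Among the 16 adaptors and receptor regulators, 15 were tested, and the DEGs of CTCFL-KD were IRS1 and IRS2. At any fold, 7 of the 15 passed the adjusted p in CTCFL-KD (1 higher and 6 lower), close to the 38.2% of all genes. Among the 16 steps from PI3K to FOXO, 15 were tested, and the DEGs of CTCFL-KD included AKT2. AKT2, an Akt kinase and the isoform most tied to insulin action, had 293 to 309 CPM in Control and 681, 699 and 707 CPM in CTCFL-KD (log2 1.20, SE 0.17, adjusted p = 0.000339). In CTCFL-OE, AKT2 had a log2 fold change of -0.01 (adjusted p = 0.990).

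Of the 15 genes listed as FOXO targets, 13 were tested, and 2 were DEGs in each condition, with 1 higher and 1 lower in CTCFL-OE and both lower in CTCFL-KD, beside 2.07% and 23.2% of all genes. INSR and IRS2, which belong to the 10 genes, are also on this list. The remaining DEG was TXNIP, which restrains glucose uptake, with 16.6, 17.1 and 15.4 CPM in Control, 9.90, 6.79 and 3.87 CPM in CTCFL-OE cells and 1.35, 2.14 and 1.10 CPM in CTCFL-KD cells. It was lower in CTCFL-OE (log2 -1.25, SE 0.31, adjusted p = 0.0810) and in CTCFL-KD (log2 -3.41, SE 0.36, adjusted p = 6.09e-05). The CTCFL-OE call was lost without any 1 Control library or without CTCFL-OE replicate 2 or 3 (log2 -1.30 to -0.98, adjusted p between 0.227 and 0.310). At any fold, 4 of the 13 passed the adjusted p in CTCFL-KD (1 higher and 3 lower), against 38.2% of all genes. The 13 had a median log2 fold change of -0.14 for CTCFL-OE and of 0.02 for CTCFL-KD, where all tested genes had medians of -0.01 and 0.08.

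**Figure D5:**
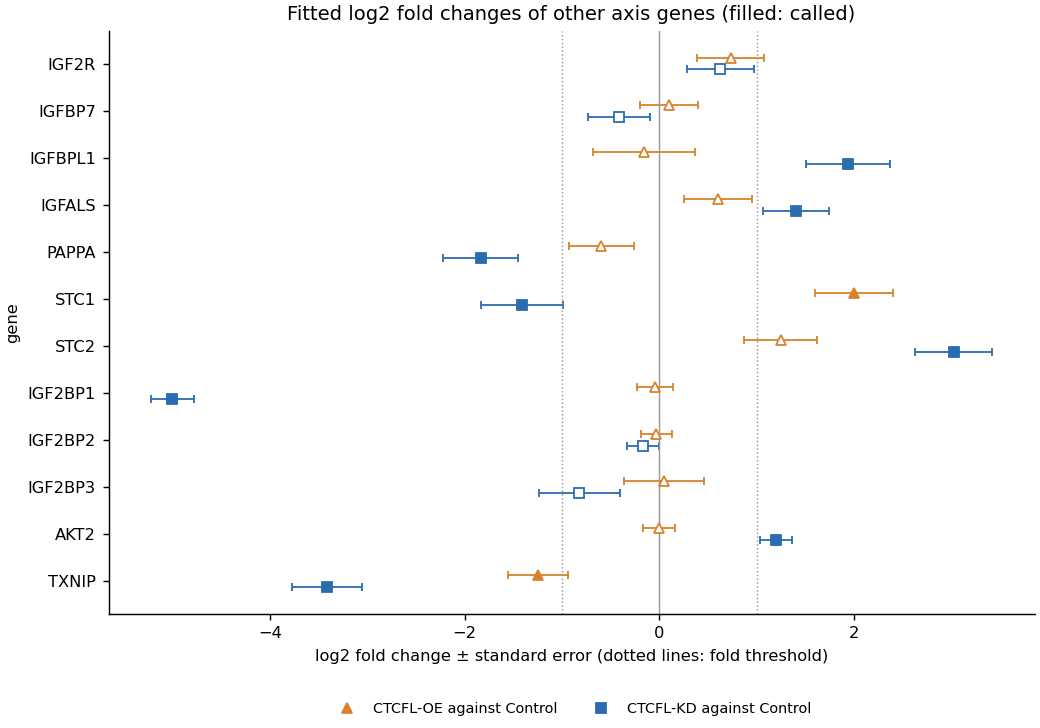
Fitted log2 fold change and standard error of 12 further genes of the axis in CTCFL-OE vs Control (triangles) and CTCFL-KD vs Control (squares), with DEGs filled and the fold threshold dotted (n = 3 libraries a group). STC1 lies at 2.00 in CTCFL-OE and -1.41 in CTCFL-KD, and IGF2BP1 lies at -5.00 in CTCFL-KD.

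The genes whose pattern over the 9 libraries was most like that of each gene were ranked by the Pearson correlation of log2 CPM among 15326 genes. The libraries share 3 groups, so these values describe group differences as much as single libraries. IGF1 was closest to CTF1 (r = 0.968), IGF1R to SLC12A3 (0.992), INSR to DELE1 (0.985), IRS1 to FBXO30 (0.997) and IRS2 to SRD5A1 (0.997). For IRS2 the next genes were PLK2 (0.997) and ETS1 (0.996), and for IRS1 they were ILK (0.996) and SPRED2 (0.994). Among the binding proteins, IGFBP2 was closest to GHDC (0.998), IGFBP3 to GJB2 (0.966), IGFBP4 to TIMM21 (0.992) and IGFBP5 to HRH1 (0.961). IGFBP6 was closest to the mitochondrial gene MT-CO3 (0.984).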

How the data were processed

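Counts of 9 OVCAR3 libraries were analysed, with 3 in each group, as their labels give it. Libraries were TruSeq Stranded mRNA. The authors used Trimmomatic for trimming, STAR for alignment (GRCh38) and featureCounts for counting, and the deposited values are whole counts per gene without normalization. The submitters' processing notes also list kallisto, with no role. The annotation release, strand setting and treatment of reads with several alignments are not given in the sources used here, and gene counts sum all isoforms, such as both forms of INSR. Positions, symbols and exon lengths came from GENCODE release 44, which named 60419 of 60660 identifiers, and promoters from RefSeq (10 of 10 genes matched). SOD2 could not be matched by symbol.

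Genes were filtered with filterByExpr and scaled by TMM in edgeR 4.0.16 (R 4.3.3), and all 9 libraries entered 1 robust quasi-likelihood fit with the group as the only factor. CPM use the scaled library sizes, with a prior count of 2 on the log2 scale for correlations. The study's methods name DESeq2, used here as an alternative (1.42.0). Other alternatives were RLE and upper-quartile scaling, 2 other count filters, non-robust estimation, fits on 2 groups, the replicate number as a block, offsets for each library's trend with exon length, both together, and each of the 9 libraries left out. The scripts were tested on simulated data. Python 3.11.15, pandas 2.3.3, scipy 1.17.1 and matplotlib 3.10.9 made tables, exact tests and figures.

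Same-numbered Control and CTCFL-KD libraries deviated together from their group means over 15327 genes (correlations of 0.251, 0.151 and 0.173, and of 0.178, 0.123 and 0.139 with length trends removed). Fits with the replicate number as a block were therefore run as alternatives, although no label names a shared batch. The fit used throughout and the exact tests took no pairs. The block also joined the same-numbered CTCFL-OE libraries, whose correlations with Control were -0.03, 0.188 and -0.05.

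The 10 genes and all gene lists were chosen with earlier results of these data known. Named genes were the 10, IGF2, IGF2R, the other IGFBPs, and up to 4 DEGs a list with no overlap between libraries, by size of change, of which 1 is not reported here. IGF2BP2, IGF2BP3, INS, INSRR, PAPPA2, HELLPAR and the markers COL1A1, COL1A2, POSTN, KRT7, KRT8 and WT1 were added after their values were seen. Across 6 ratios, 18 exact two-sided permutation tests were run, none of which could go below 0.10 before adjustment. Limits drawn from counts cover counting error only.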

Additional observations from a re-analysis of the deposited data

How the results depend on the processing

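Of the 20 alternative fits, 9 left out a library. IRS1, IRS2 and IGFBP2 in CTCFL-KD, and IGF1R, IRS2 and IGFBP2 in CTCFL-KD against CTCFL-OE, were DEGs in all 20, and IGF1 in that contrast in the 19 that kept it. With at least 10 counts required in every library IGF1 was not tested, which left 1 of the 10 genes as a DEG in CTCFL-OE, and the DEGs of CTCFL-KD against CTCFL-OE numbered 1947 instead of 3032. DEGs among all genes in CTCFL-OE, 368 in the edgeR fit used throughout, numbered 826 without the low-count filter, 565 with length offsets, 835 with edgeR on 2 groups and 750 with DESeq2 on 2 groups. Leaving out 1 library gave 0 to 3 DEGs of the 10 genes in CTCFL-OE, 3 to 7 in CTCFL-KD and 4 to 5 in the direct contrast. Among all genes it gave 44 to 1184, 3661 to 4511 and 2544 to 3404, and among all genes of the axis 0 to 7, 12 to 19 and 11 to 13. The CTCFL-OE count of all genes was 45, 61 and 44 without Control replicates 1, 2 and 3, 1184, 79 and 109 without CTCFL-OE replicates 1, 2 and 3, and 980 without CTCFL-KD replicate 1. The causes were not tested.

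Values with no call changed sign in places. The log2 fold change of IGFBP5 in CTCFL-OE was -0.0838 with the replicate block, -0.0709 with the block and length offsets, and -0.2988 to 0.3298 with 1 library left out, below 0 without Control replicate 1 and without CTCFL-OE replicate 2 or 3. That of IGFBP3 in CTCFL-OE was -0.0375 to 0.872 with 1 library left out, below 0 without CTCFL-OE replicate 3. That of IGFBP6 in CTCFL-KD against CTCFL-OE was -0.05 with length offsets, -0.0393 with the block and length offsets, and -0.5564 to 0.7428 with 1 library left out, below 0 without CTCFL-OE replicate 1 or CTCFL-KD replicate 1. With the replicate block, the 10 genes gave 2 DEGs in CTCFL-OE, 6 in CTCFL-KD and 5 in the direct contrast, IGF1R in CTCFL-KD being the call it added, and it removed none. None of the calls of the 10 genes was lost with RLE or upper-quartile scaling. With 3 libraries a group and counts under 100, IGF1 and IGFBP6 were the least precise of the 10.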
